A study of Mus musculus with 16 samples.

Results

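The miR-99, miR-100 and miR-125 family was followed across mouse liver tumours and control livers. Its 5 members, listed on the array as mmu-miR-99a, mmu-miR-99b, mmu-miR-100, mmu-miR-125a-5p and mmu-miR-125b-5p, were taken by name from the 566 mouse miRNAs on an Agilent one-colour miRNA array. Of these 5, 4 were detected on at least 1 of the 16 arrays and 2, miR-99a and miR-125b-5p, were detected on all of them. A miRNA was tested where all arrays of some group detected it, which held for 96 miRNAs and, of the family, for those 2 only.

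All samples were livers of male C3H/HeJ mice. Of the 16 arrays, 7 held Ctnnb1-mutated tumours (the gene of beta-catenin) of mice on phenobarbital, a drug used as a liver tumour promoter. Another 3 held non-tumour liver labelled with the same phenobarbital treatment. The remaining groups received no phenobarbital (agent given as H2O), with 3 Ha-ras-mutated tumours and 3 non-tumour livers, called untreated controls here. Per the design text, mice had 1 injection of the carcinogen N-nitrosodiethylamine, at 10 or 90 µg/g at 2 or 6 weeks of age, and after 2 weeks went on 0.05% phenobarbital or control diet for 28 to 36 weeks. The design text assigns no dose or age to a sample, and it does not single out the controls as free of carcinogen. The labels give 27 weeks of treatment for all samples, while their protocol text describes 28 days of drinking water, so the exposure time is not settled. The Ctnnb1 tumours therefore differed from the Ha-ras tumours in phenobarbital as well as in mutation. Nothing in the labels says that samples came from separate mice, so p-values measure the spread between these samples only.

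miRNAs of this family occur in clusters with a let-7 gene between a miR-99 or miR-100 gene and a miR-125 gene, an arrangement shared in part with the fruit fly. miR-99 and miR-100 are known to repress mTOR, the kinase that couples nutrients to growth. The miR-125 members are relatives of worm lin-4 and are known to repress Lin28, the RNA-binding protein that blocks let-7 maturation. In human liver cancer, miR-99a, miR-100 and miR-125b have been described as growth-restraining miRNAs.

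The family has 2 seeds (bases 2 to 8, which pair with target mRNAs), shown in capitals in these mature sequences from the RefSeq miRNA table. The first 3 share the seed ACCCGUA, and no other of the 1679 mature miRNA names in the table has it. The miR-125 members share CCCUGAG, which 5 names carry. miR-10a is shown as a relative with a shifted seed, because its level is set beside the family's further on.
miR-99a: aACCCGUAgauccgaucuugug
miR-99b: cACCCGUAgaaccgaccuugcg
miR-100: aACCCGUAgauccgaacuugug
miR-125a-5p: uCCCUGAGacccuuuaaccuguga
miR-125b-5p: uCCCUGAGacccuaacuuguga
miR-10a: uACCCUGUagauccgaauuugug
With positions counted from 1 at the 5′ end and the miR-99a base first, miR-100 differs from miR-99a at 1 position, U16A. miR-99b differs from miR-99a at 4 positions, A1C, U11A, U16C and U21C. miR-125a-5p and miR-125b-5p share their first 13 bases. Whether the array's probes separate miR-99a from miR-100 was not tested.

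In the GRCm38.p6 assembly of the RefSeq table, the genes lie on the plus strand in 3 clusters, each of a miR-99 or miR-100 gene, a let-7 gene and a miR-125 gene. Mature miR-99a is at chr16:77598940-77598961, followed by let-7c and by 1 copy of miR-125b-5p at chr16:77646279-77646300. miR-99b is at chr17:17830194-17830215, followed by let-7e and by miR-125a-5p at chr17:17830817-17830840. miR-100 is at chr9:41531437-41531458, followed by let-7a and by the second copy of miR-125b-5p at chr9:41581940-41581961. The same mature miR-125b-5p comes from both copies, so the array cannot assign its signal to chromosome 16 or 9. The 3 clusters span 47361 bases on chromosome 16, 647 on chromosome 17 and 50525 on chromosome 9.

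Signals were scaled so that every array had the same 75th percentile over 117 probes detected on all arrays, and values under 24.8 (log2 4.63) were raised to that floor. Before scaling this percentile ran from 386 to 1248, and 83 to 117 miRNAs were detected per array. A miRNA was called detected where over 50% of the spots of a probe were well above background. Levels are means of the log2 values of a miRNA's probes, and groups were compared with limma over all 96 tested miRNAs (Benjamini-Hochberg adjustment, threshold 0.05). The number of arrays limits the precision. The hepatocyte markers miR-122, miR-192 and miR-194 were tested and their summed scaled signal ran from 9955 to 24242, so the liver label fits its markers. Arrays lay on 3 slides. Slide 1 held all 7 Ctnnb1 tumours and Ha-ras tumour replicate 1, slide 2 held Ha-ras replicates 2 and 3, phenobarbital replicates 4 and 5 and untreated replicate 1, and slide 3 held the other controls.

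miR-125b-5p was lower in Ha-ras tumours than in untreated livers. On its brighter probe the scaled signals were 370, 532 and 558 in the untreated controls (replicates 1 to 3) and 259, 250.5 and 277 in the Ha-ras tumours. The groups did not overlap, and the lowest untreated value came from the array that shared slide 2 with 2 of the tumours. In the fit on both probes miR-125b-5p fell by 0.44 on the log2 scale (SE 0.13, 95% interval -0.73 to -0.16, limma adjusted p = 0.0229). On the brighter probe alone it fell by 0.87 (SE 0.24, limma adjusted p = 0.0122), a level 1.83-fold lower. In bulk tissue, fewer cells of a type and less RNA per cell cannot be told apart.

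The gap between those estimates comes from the second miR-125b-5p probe, which was at the floor on all but 1 array, an untreated one. Its signals before the floor ran from 18.0 to 25.4 in the untreated livers and from 10.8 to 15.05 in the Ha-ras tumours, and it was detected on 1 Ctnnb1 tumour array only. A probe at the floor in both groups adds a change of about 0 to the mean and so pulls the average toward 0. The brighter probe had a median coefficient of variation of 4.67% over its replicate spots.

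**Figure D1:**
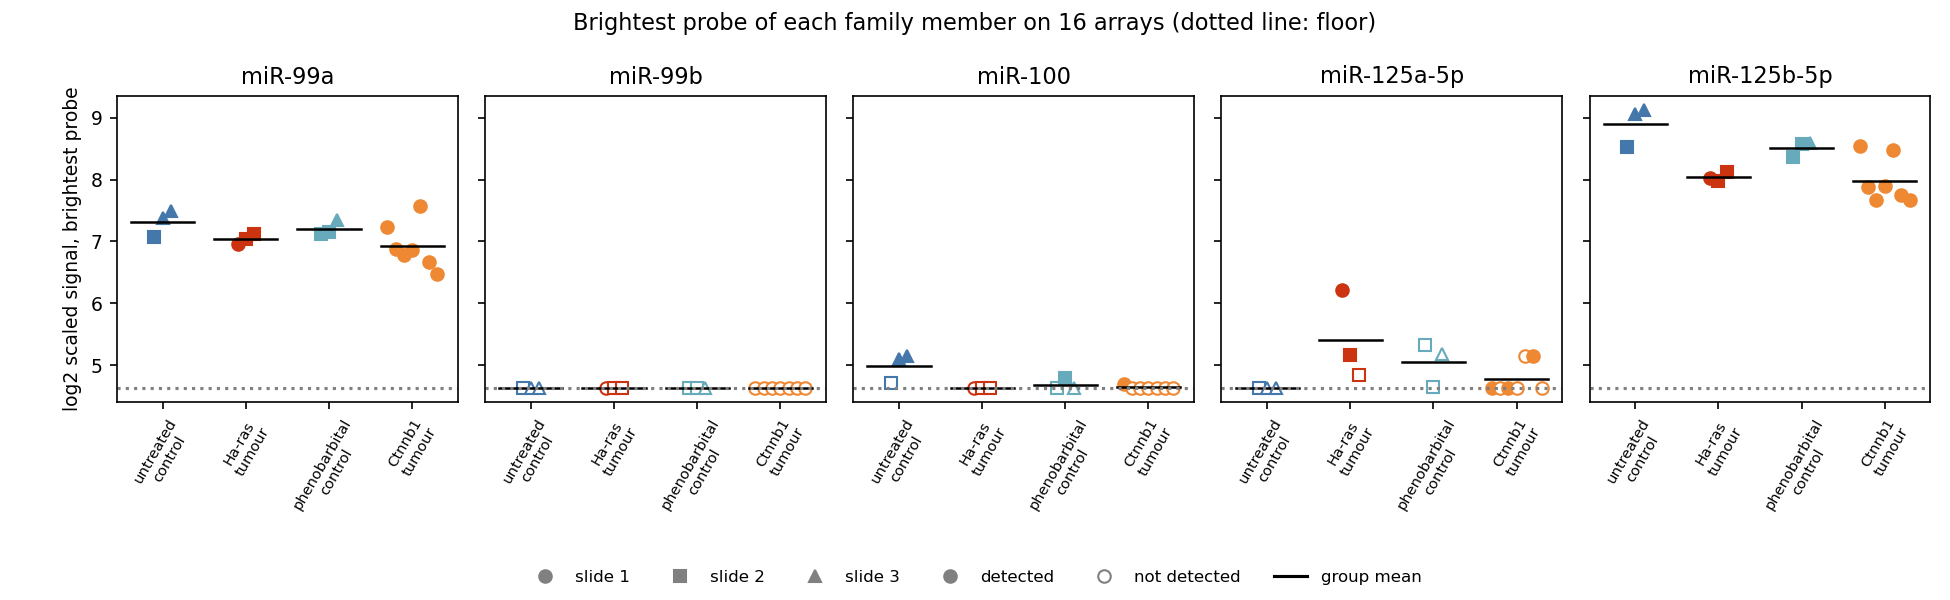
Log2 scaled signal of the brightest probe of each member (vertical axis) on every array, by group. Point shapes give the slide, filled points are detected, open points are not, black lines are group means and the dotted line is the floor of 4.63. miR-125b-5p sits between 7.97 and 8.12 in the Ha-ras tumours and between 8.53 and 9.12 in the untreated controls, while miR-99b is at the floor on all 16 arrays.

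Of the 2 members tested, 1 was called lower in Ha-ras tumours and 0 higher, against 29.2% of all tested miRNAs called in either direction, 19.8% called lower and 9.38% called higher. The groups also did not overlap for 42.7% of the tested miRNAs in this comparison, 26% with the tumours lower. The median log2 fold change was -0.31 over the 2 members and -0.06 over all 96. The call depended on the settings. Of 17 alternatives other than leaving out 1 array, 8 kept it. The 17 include fits within slide 2, where 1 control was left and no call is read either way. Scaled over all mouse probes, which moved the median of all tested miRNAs to 0.28, miR-125b-5p differed by -0.10 (limma adjusted p = 0.810). Of all tested miRNAs, limma called 12 under that scaling, all 12 higher, against 28 in the main scaling, 9 higher and 19 lower. With slide added as a fixed block it differed by -0.32 (limma adjusted p = 0.307). Within slide 2 the 2 tumours and 1 control differed by -0.24, or -0.49 on the brighter probe. Leaving out untreated replicate 2 or 3, or Ha-ras replicate 1 or 2, took the adjusted p to between 0.0632 and 0.0881, with differences from -0.44 to -0.39.

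miR-99a differed less between the same groups. Its brighter probe read 135, 166 and 181 in the untreated livers and 124, 131 and 138 in the Ha-ras tumours. The ranges overlapped, since the lowest untreated value lay between tumour values. The log2 difference was -0.18 (SE 0.15, 95% interval -0.50 to 0.14, limma adjusted p = 0.425), and -0.28 on the brighter probe (limma adjusted p = 0.382). Scaled over all mouse probes it turned to 0.25, and in the values of the authors' deposited table it was 0.07. Within slide 2 it was 0.01.

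The Ctnnb1 tumours were set against livers with the same phenobarbital label. The brighter miR-125b-5p probe read 372, 235, 205, 238, 357, 214 and 204 in Ctnnb1 tumours 1 to 7, with a lowest value of 204, a median of 235 and a highest of 372. It read 329, 382 and 387 in phenobarbital controls 4 to 6. Tumours 1 and 5 lay within the range of the controls and the other 5 lay below it. The log2 difference was -0.26 (SE 0.11, 95% interval -0.51 to -0.02, limma adjusted p = 0.157), and -0.53 on the brighter probe (limma adjusted p = 0.0901), so miR-125b-5p did not pass the threshold. Without Ctnnb1 tumour 1 the difference was -0.31 with a limma adjusted p of 0.0486.

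Of the 2 tested members 0 were called here, against 8.33% of all tested miRNAs, all of them lower. No slide held both of these groups. The members' median difference was -0.19 and that of all tested miRNAs was -0.05.

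miR-99a in the Ctnnb1 tumours ran from 88.6 to 189 on its brighter probe, with a median of 117, and in the phenobarbital controls it read 139, 143 and 162. The tumours lay on both sides of the controls, with tumour 5 the highest of all 16 arrays and tumour 7 the lowest. The difference was -0.12 (SE 0.13, limma adjusted p = 0.604). Tumours 1 and 5 had the highest readings of the group for both miR-99a and miR-125b-5p.

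**Figure D2:**
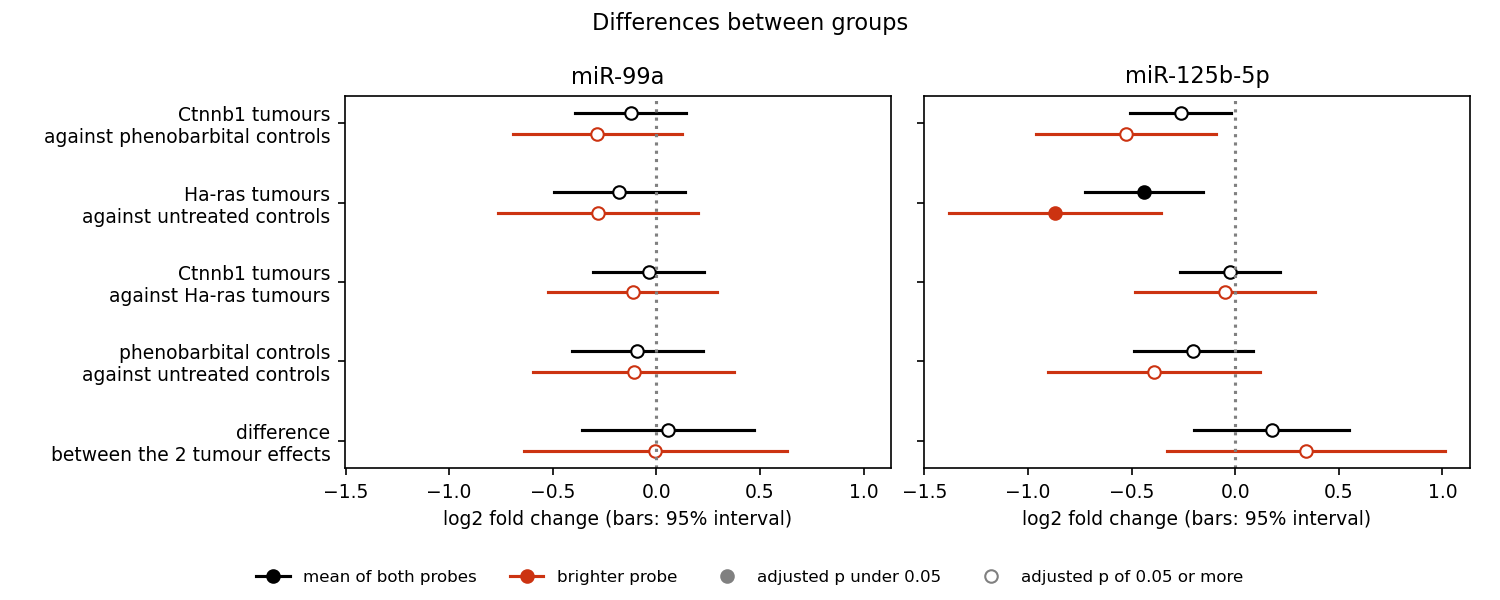
Log2 fold changes of miR-99a and miR-125b-5p (horizontal axis) with 95% intervals in each comparison. Black is the mean of both probes, red the brighter probe, and filled points have an adjusted p under 0.05. The only filled points are those of miR-125b-5p in Ha-ras tumours against untreated controls, at -0.44 and -0.87.

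The remaining comparisons gave small differences with wide intervals. Between Ctnnb1 and Ha-ras tumours, miR-125b-5p differed by -0.03 (95% interval -0.27 to 0.22, limma adjusted p = 0.898) and miR-99a by -0.04 (-0.30 to 0.23, limma adjusted p = 0.878). Here 0 of 2 members were called, against 30.2% of tested miRNAs. Between phenobarbital and untreated controls, miR-125b-5p differed by -0.20 (-0.49 to 0.08, limma adjusted p = 0.654) and miR-99a by -0.09 (-0.41 to 0.23, limma adjusted p = 0.801). limma called 0% of tested miRNAs there, and 6 of 96 had an unadjusted p under 0.05. Within slide 2 the brighter miR-125b-5p probe differed by -0.06 between these controls, and within slide 3 by -0.49.

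The tumour effects of both genotypes, each against its own controls, were also compared directly. For miR-125b-5p the difference from controls was less negative in Ctnnb1 tumours (-0.26) than in Ha-ras tumours (-0.44), by 0.18 (95% interval -0.20 to 0.55, limma adjusted p = 0.607). For miR-99a it was -0.12 against -0.18, less negative by 0.05 (-0.36 to 0.47, limma adjusted p = 0.856). This difference was called for 2.08% of tested miRNAs and for 0 of 2 members. The change of miR-125b-5p was thus not shown to differ between the genotypes, and in Ctnnb1 tumours that change was itself not called.

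In order of level, miR-125b-5p averaged 6.77 ± 0.17 in untreated controls, 6.57 ± 0.07 in phenobarbital controls, 6.33 ± 0.04 in Ha-ras tumours and 6.31 ± 0.19 in Ctnnb1 tumours (log2, SD, n = 3, 3, 3 and 7). The ranges of the untreated and phenobarbital controls overlapped, as did those of the Ha-ras and Ctnnb1 tumours, and phenobarbital controls were not compared with Ha-ras tumours. miR-99a averaged 6.02 ± 0.14, 5.93 ± 0.07, 5.84 ± 0.05 and 5.80 ± 0.23 in the same order of groups. The ranges of all neighbours in that order overlapped.

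**Figure D3:**
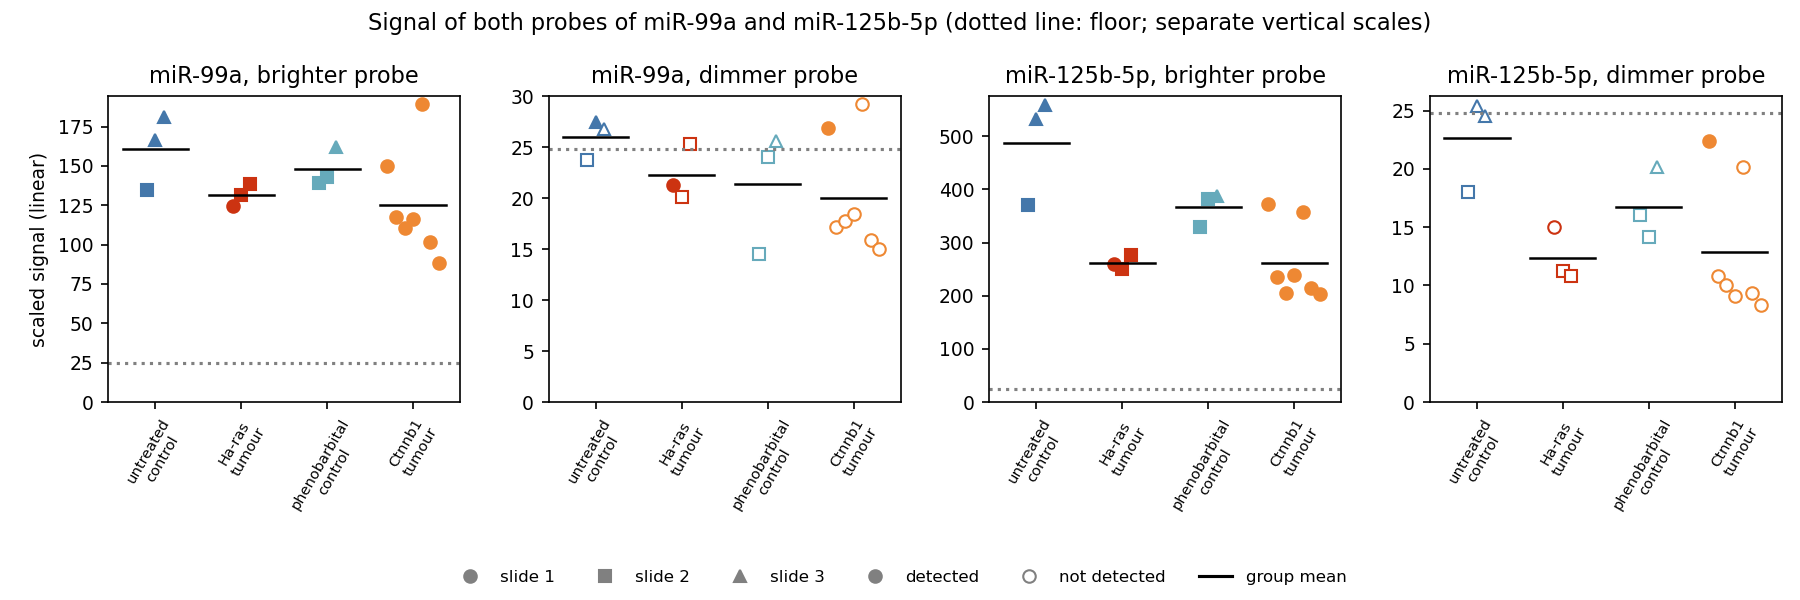
Scaled signal on a linear axis from 0 for both probes of miR-99a and miR-125b-5p on every array, by group, each panel with its own vertical scale. Filled points are detected, open points are not, black lines are group means and the dotted line is the floor of 24.8. The dimmer miR-125b-5p probe was under the floor on 15 of 16 arrays.

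The ratio of miR-99a to miR-125b-5p within an array does not depend on the factor by which an array is scaled, so it was compared as well, after the levels had been seen. Its absolute size mixes the brightness of 2 probes and carries no meaning, but its differences between groups do. On the brighter probes the log2 ratio was -1.46, -1.68 and -1.62 in the untreated controls and -1.06, -0.93 and -1.002 in the Ha-ras tumours. All 3 tumours lay above all 3 controls, with less miR-125b-5p per miR-99a. The difference was 0.59 (two-sided exact permutation p = 0.1, the smallest that 3 against 3 allows, and 0.133 after adjustment over 4 comparisons). Within slide 2 it was 0.49, and with each array left out it stayed between 0.54 and 0.65. On the mean of both probes it was 0.26, and with normexp background, which also averages both probes, it was 0.35. In the values of the authors' deposited table it was 0.72, and on the array software's total gene signal per miRNA 0.64. The groups did not overlap in any of these. For 42.6% of all 2556 pairs among the 72 miRNAs detected on all arrays, the ratio likewise parted these groups, so this separation was common on these arrays.

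In the phenobarbital controls the log2 ratio was -1.24, -1.42 and -1.26, which lay above all untreated values by 0.28 on average (two-sided exact permutation p = 0.1, again the smallest allowed). Such a separation was seen for 24% of pairs. In the values of the authors' deposited table the difference was 0.17 and these controls overlapped (two-sided exact permutation p = 0.5). On the mean of both probes it was 0.11, or 0.17 with normexp background. On the brighter probes it was 0.13 within slide 2 and 0.40 within slide 3. In the Ctnnb1 tumours the log2 ratio of the brighter probes ran from -1.31 to -0.89 with a mean of -1.06 ± 0.15 (SD, n = 7). Its mean lay above that of the phenobarbital controls by 0.24 (two-sided exact permutation p = 0.0583, adjusted 0.133), and tumour 1 lay within their range. On the mean of both probes the difference was 0.14 and the groups did not overlap (two-sided exact permutation p = 0.0333, adjusted 0.133). It was 0.12 with normexp background, 0.25 with deposited values and 0.24 on total gene signal, and the groups overlapped in each of these. On brightest probes the ratio parted these groups for 14.6% of pairs. The tumour genotypes differed by -0.06 in this ratio (two-sided exact permutation p = 0.533).

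**Figure D4:**
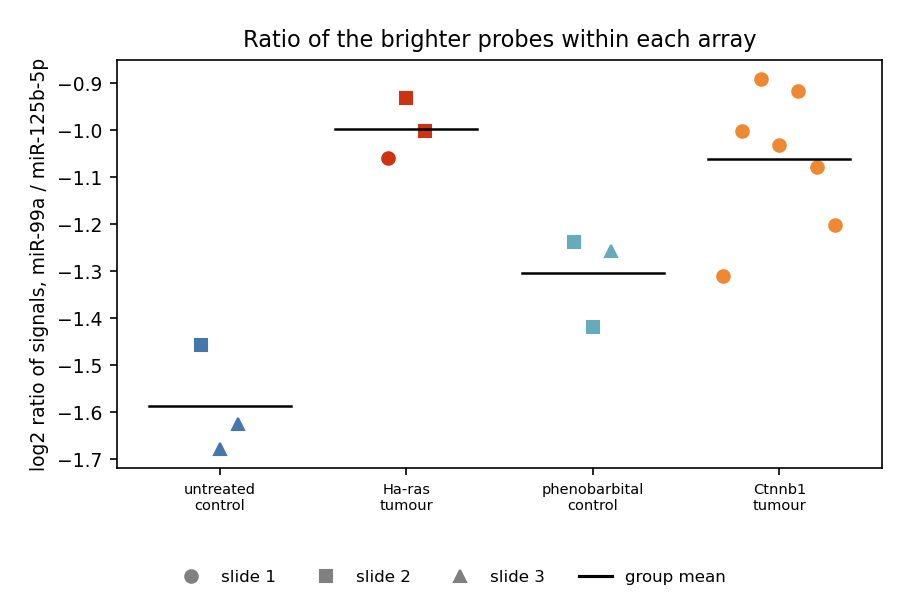
Log2 ratio of the brighter miR-99a probe to the brighter miR-125b-5p probe (vertical axis) within each array, by group, with point shapes for the slide and black lines for group means. The untreated controls lie lowest, from -1.68 to -1.46, and the Ha-ras tumours lie between -1.06 and -0.93.

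miR-100, which shares its seed with miR-99a and its chromosome 9 cluster with a copy of miR-125b-5p, was near the floor. Its brightest probe read 26.3, 34.3 and 35.4 in the untreated controls, of which replicates 2 and 3 were detected. It read 21.6, 27.9 and 22.1 in the phenobarbital controls, where replicate 5 was detected. In the Ha-ras tumours it read 12.1, 15.4 and 16.5 and was not well above background on any array. Among the Ctnnb1 tumours it was detected on 1 of 7 arrays, at 26.1. All untreated values lay above all Ha-ras values. A limit was set for each tumour array as the higher of the floor and its lowest detected signal. The mean of the untreated readings was 1.12-fold above these limits, and 1.42-fold above the lowest detected signals alone. Untreated replicate 1, which was not detected, entered that mean, so these are not strict lower bounds. On the array of Ha-ras tumour 3 the lowest detected signal was 36.5, above every untreated reading of miR-100. miR-100 was detected on too few arrays for the main test.

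miR-125a-5p, which has the same seed as miR-125b-5p, was not lower in Ha-ras tumours. Its brightest probe read 74.5, 35.9 and 28.8 there, with replicates 1 and 2 detected, against 16.6, 19.3 and 20.02 in the untreated controls, where it was not well above background on any array. The mean of the tumour readings was 1.58-fold above the limits of the untreated arrays, set in the same way, and 1.19-fold without Ha-ras tumour 1. Ha-ras tumour 3, which was not detected, entered both means, so these are not strict lower bounds. In the phenobarbital controls it read 40.2, 25.2 and 36.1 and was not detected, because only 3 or 4 of 10 spots were well above background. In the Ctnnb1 tumours it was detected on 3 of 7 arrays, at signals of 18.7 to 35.3. Detection followed array brightness. The 5 arrays that detected miR-125a-5p were the 5 with the highest scaling percentiles, from 707 on Ha-ras tumour 2 to 1248 on Ha-ras tumour 1. All other arrays had 669 or less, with 510 to 635 in the untreated controls and the lowest, 386, on phenobarbital control 4. Detection in Ha-ras tumours but not in untreated controls thus cannot be told apart from array brightness, and the part of brightness was not tested.

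miR-99b, the chromosome 17 member of the miR-99 group, was below the detection rule on each of the 16 arrays. Its brightest probe stayed between 0.9 and 14.8 before the floor. On the array of Ha-ras tumour 1, 3 of its 10 spots were well above background, the most of any array.

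The let-7 miRNAs of the clusters were abundant enough to be tested in every case. let-7 represses Ras and Lin28 messages, and let-7a and let-7c are each made from more than 1 gene, so their levels are not those of these clusters alone. let-7c, the partner of miR-99a, read 9.64, 9.56 and 9.68 (log2) in untreated livers and 9.23, 9.17 and 9.18 in Ha-ras tumours. These groups did not overlap, and let-7c fell by 0.43 (SE 0.12, limma adjusted p = 0.0146). In Ctnnb1 tumours it differed by -0.32 from phenobarbital controls (limma adjusted p = 0.0533). let-7a, the partner of miR-100, differed by -0.05 in Ha-ras tumours (limma adjusted p = 0.905) and by -0.42 in Ctnnb1 tumours (limma adjusted p = 0.10).

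let-7e, which lies between miR-99b and miR-125a-5p, read 5.57, 5.66 and 6.01 in untreated livers and 7.14, 5.75 and 5.35 in Ha-ras tumours. Tumour 1 stood above all other arrays, as it did for miR-125a-5p. The difference was 0.33 (SE 0.33, limma adjusted p = 0.4659), and -0.19 without that tumour (limma adjusted p = 0.598). Of the 3 let-7 partners, then, 1 was called lower and 0 higher in Ha-ras tumours, where 19.8% of all tested miRNAs were called lower, and 0 were called in the other comparisons.

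**Figure D5:**
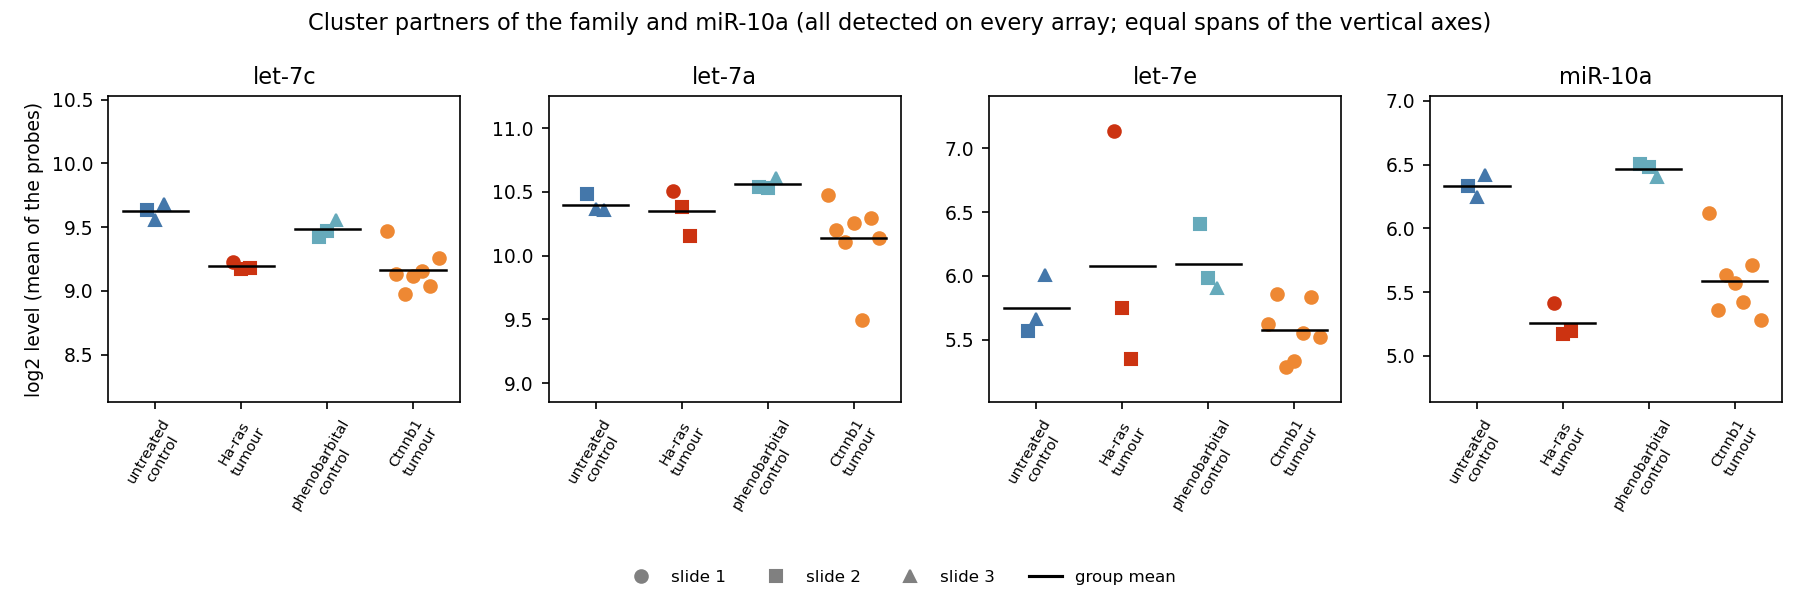
Log2 level (vertical axis, mean of the probes) of let-7c, let-7a, let-7e and miR-10a on every array, by group, with point shapes for the slide and black lines for group means. let-7c and miR-10a are lower in all 3 Ha-ras tumours than in all 3 untreated controls, and let-7e is highest, at 7.14, in Ha-ras tumour 1.

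miR-10a, encoded in a Hox gene cluster, shares a run of 10 bases with miR-99a but not its seed. It fell by 1.07 in Ha-ras tumours against untreated livers (SE 0.17, limma adjusted p = 0.000509) and by 0.88 in Ctnnb1 tumours against phenobarbital controls (SE 0.15, limma adjusted p = 0.00158). Neither pair of groups overlapped, which held for 42.7% of tested miRNAs in the Ha-ras comparison and for 14.6% in the Ctnnb1 comparison. miR-10b was not tested because it was not detected on any array. miR-351, the 1 other miRNA on the array with the miR-125 seed, was also not detected. Neither were the opposite strands listed on the array (0 of 4), which belong to the miR-125a, miR-125b and miR-99b hairpins. Those of miR-99a and miR-100 were not on the array.

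Each tested member was also set against all other tested miRNAs by the SD, over the 16 arrays, of their log2 ratio, as a description. For miR-99a the smallest SDs were with miR-125b-5p (0.12), miR-29a (0.14) and miR-378 (0.15). For miR-125b-5p they were with miR-338-3p (0.10), let-7c (0.12) and miR-99a (0.12). miR-338-3p was detected on 10 of the 16 arrays, with group means of 4.63 to 5.15, near the floor. The median over all 4560 pairs was 0.49, and 0.395% of pairs had a smaller SD than miR-99a with miR-125b-5p. Both members have a probe near the floor, which lowers their own SDs (0.18 and 0.23, against a median of 0.33) and with them these values. On brightest probes alone, among miRNAs detected on all arrays, miR-99a was closest to miR-26a (0.14), miR-29a (0.16) and miR-101a (0.21). miR-125b-5p was closest to miR-26a (0.22), miR-30e (0.24) and miR-99a (0.25).

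The 2 tested markers of stromal cells moved in the direction of miR-125b-5p. The summed signal of the 5 markers miR-199a-3p, miR-199a-5p, miR-214, miR-143 and miR-145 was 164 to 252 in untreated controls and 130 to 133 in Ha-ras tumours. Each marker at the floor added 24.8 to it, and in the Ha-ras tumours miR-199a-3p alone lay above the floor. The sum was 208 to 217 in phenobarbital controls and 133 to 168 in Ctnnb1 tumours, where tumour 1 had the highest. Tumour 5, also high for miR-125b-5p, had a sum of 142, while tumour 6 had 159 at a miR-125b-5p signal of 214. 2 of the 5 were tested. miR-199a-3p fell by 1.51 in Ha-ras tumours (limma adjusted p = 0.000509) and by 1.16 in Ctnnb1 tumours (limma adjusted p = 0.00187). miR-143 entered the test only through the untreated controls, at log2 levels of 4.66 to 5.66, and was at the floor on all 3 Ha-ras tumour arrays, so its p there is not given. In Ctnnb1 tumours, with 5 of 7 arrays at the floor, miR-143 differed by -0.31 from phenobarbital controls (limma adjusted p = 0.272). miR-214 and miR-145 were at the floor on all arrays. Untreated replicate 1, the lowest of its group for miR-125b-5p, miR-99a and miR-100, also had the lowest stromal sum of its group. Tested markers of other cell types were not called in Ha-ras tumours, though some were lower too. The endothelial miR-126-3p differed by -0.30 and the leukocyte miR-142-3p and miR-223 by -0.45 and -0.47. The erythroid miR-451 and miR-144 differed by 0.25 and 0.33. In Ctnnb1 tumours they differed by -0.28, -0.12, 0.08, -0.41 and -0.25 in the same order, also without a call. The part of stromal or other cells in the difference of miR-125b-5p was not tested.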

How the data were processed

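Total RNA (25 ng) was labelled with Cy3 and hybridised, per the labels' protocols. The authors deposited scanner intensity values per spot from Agilent Feature Extraction 10.7.3.1, with other columns of spot flags, per the file headers. A deposited log2 table of 147 rows, with R 2.14.1 per the submitters' processing notes, followed log2 of total gene signal in rank. Its scaling and centring are not given in the sources used here, its column medians were 5.54 to 5.60, and it served as an alternative.

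From the processed intensity, outlier spots were dropped, spots averaged per probe, arrays scaled to the 75th percentile over 117 probes detected on all arrays, and values floored at 24.8. No spot was saturated (0 of 11540 per array). limma 3.58.1 in R 4.3.3 fitted 4 group means over 16 arrays and 96 miRNAs, checked on simulated data. All 5 members are named. The members and lists were chosen with earlier results of these data known. Alternatives covered scaling, background, probe summary, filters, slide, replicate number and each array left out.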

Additional observations from a re-analysis of the deposited data

How the results depend on the processing

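In Ha-ras tumours against untreated controls, 1 member (miR-125b-5p) was called. The count was 0 with scaling over all mouse probes, on either probe summary, with deposited values (-0.66, limma adjusted p = 0.118), and with normexp background (-0.58, adjusted p = 0.0590). It was 0 with slide as a fixed block and within slide 2, also on the brighter probe alone (-0.63, adjusted p = 0.224, and -0.49, adjusted p = 0.215), and 2 with no filter on dim miRNAs, where miR-100 was added. All 3 Ha-ras values of miR-100 are at the floor, so that addition rests on floored values and supports no call. Leaving out each array gave 0 to 1 members in this comparison, and differences of miR-125b-5p from -0.54 to -0.39. In Ctnnb1 tumours against phenobarbital controls it gave 0 to 1, the latter without Ctnnb1 tumour 1. In the other 3 comparisons it gave 0. miR-125b-5p was lower in Ha-ras tumours under all 33 alternatives run for it. Of these, 16 left out 1 array, and leaving out an array of another group cannot change this difference. Fitting only the groups compared cannot change it either. The cause of the lost calls was not tested. The combined settings of brighter probe with scaling or slide, and the ratio, were chosen after seeing the data.

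With replicate number as a block, 0 members were called in Ha-ras tumours (miR-125b-5p -0.44, limma adjusted p = 0.0651). Same-numbered arrays did not consistently deviate together there (r = 0.58, -0.68 and -0.09 for numbers 1 to 3), nor in the phenobarbital arm (0.24, -0.06 and -0.77 for numbers 4 to 6). With 3 pairs in each arm, this check cannot settle whether the numbers pair the samples. With slide as a random block the consensus correlation was -0.12, and miR-125b-5p differed by -0.47 (adjusted p = 0.00976). The floor limits miR-99b, miR-100 and miR-125a-5p to readings and comparisons with detection limits.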

Other observations

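In the authors' deposited table, the log2 values of miR-125b-5p ran from 8.09 to 8.53 in untreated controls, from 7.74 to 8.01 in phenobarbital controls, from 7.59 to 7.74 in Ha-ras tumours and from 7.05 to 8.09 in Ctnnb1 tumours. Those of miR-99a ran from 6.79 to 7.05, from 6.31 to 6.79, from 6.89 to 7.05 and from 5.73 to 7.09 in the same groups. In that table miR-125a-5p ran from 4.70 to 6.08 in Ha-ras tumours and from 3.72 to 4.28 in untreated controls. miR-100 was between 4.52 and 4.81 in untreated controls and was set to -1, the lowest value of the authors' deposited table, on 1 Ha-ras, 1 phenobarbital control and 6 Ctnnb1 tumour arrays.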
